A study of Homo sapiens with 8 samples.

Results

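Superoxide dismutases, catalase and NADPH oxidases make and remove superoxide and hydrogen peroxide. The 7 genes described here were taken by symbol from the count table: SOD1, SOD2, SOD3, CAT, NOX4, CYBB and CYBA, 7 of 38173 genes. All 7 were in the table, and 6 had enough reads to be tested, among 16647 tested genes. CYBB was the member left out by the filter on low counts. The data are poly(A) RNA counts from MH7A, 1 immortalised line derived from human rheumatoid synovium that stands in for fibroblast-like synoviocytes. Each of 4 groups held 2 libraries. Mock cells carry a DMSO label, whereas the design text describes them as incubated as normal. TNF cells received tumour necrosis factor for 24 h, at 20 ng/mL in the design text and with a different volume unit in the labels. TNF + Tub B cells received the same TNF together with 60 µM Tubuloside B, a phenylethanoid glycoside, for 24 h, and Tub B cells received 60 µM Tubuloside B without TNF for 24 h. Nothing in the labels ties the libraries of a group to separate cultures. The p-values therefore reflect the spread between these samples alone, and that spread may be technical.

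NADPH oxidases pass electrons from NADPH across a membrane to oxygen. CYBB, the catalytic subunit of the phagocyte oxidase, releases superoxide in bursts once cytosolic subunits join it, whereas NOX4 is active without them and releases mainly hydrogen peroxide. CYBA encodes p22phox, the membrane partner that stabilises both. Superoxide dismutases turn superoxide into hydrogen peroxide: SOD1 in the cytosol with copper and zinc, SOD2 in the mitochondrial matrix with manganese, and SOD3 outside the cell with copper and zinc. Catalase, encoded by CAT, breaks hydrogen peroxide into water and oxygen, mainly in peroxisomes. In many cell types, synovial fibroblasts included, SOD2 is known as a gene induced by TNF through NF-κB.

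Library totals ranged from 14073186 to 31937334 counts. Levels are given as CPM, counts relative to the library total after scaling by trimmed mean of M-values (TMM), and each library's value is printed. The limit that a count of 0 allows, 3 counts, was 0.0992 to 0.208 CPM, and covers counting error only. No pair of libraries was identical, and the chi-square per degree of freedom within a group was 2.20 to 5.19, the highest in mock. Of 14 fibroblast markers 13 were tested, and the collagen gene COL1A2 was at 7558 to 12410 CPM and VIM, the vimentin gene, at 2730 to 3521 CPM. The untested marker, PRG4, the lubricin gene of the synovial lining, stayed at or below 0.416 CPM in every library. Of the 13, 7 rose and 3 fell with TNF (all tested genes: 17.2% and 13.3%). When Tub B was added to TNF, 9 fell (all tested genes: 13.1%). With Tub B alone 2 rose and 3 fell (all tested genes: 4.83% and 7.91%), and 6 were called lower for the interaction (all tested genes: 3.2%). Summed over the 14, their level was 35450 to 41130 CPM in mock, 39920 to 41020 with TNF, 30460 to 31090 with TNF + Tub B and 35940 to 38400 with Tub B, and their part in the members' values was not tested. Of 19 markers of macrophages, other myeloid cells and neutrophils in the table, 17 were below 1 CPM in every library. TYROBP, a defining myeloid adaptor, had 0 CPM in 7 libraries. Of the same markers, CD14 was at 1.12 to 2.23 CPM over the libraries, and PTPRC reached 1.07 CPM in mock replicate 2. Of 6 endothelial markers 4 were below 1 CPM in every library. TEK, from that list, was at 4.05 and 3.72 CPM in mock and 6.45 and 7.77 CPM with TNF (log2 fold change 0.84 ± 0.15, edgeR adjusted p = 0.000321). With TNF + Tub B it was at 4.22 and 4.57 CPM, lower than with TNF (−0.68 ± 0.16, edgeR adjusted p = 0.00537). With Tub B alone TEK was at 2.15 and 2.53 CPM. In bulk RNA, fewer cells of a type and less RNA per cell cannot be told apart.

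The dismutase genes responded to TNF unequally: SOD2 rose about 20-fold with TNF, whether or not Tub B was present, while SOD1 and SOD3 did not pass the test against mock. SOD2 stood at 105 and 110.2 CPM in the mock libraries. It stood at 2339.7 and 2338.7 CPM in the TNF libraries. The TNF + Tub B libraries held 2305.6 and 2352.2 CPM of SOD2, the Tub B libraries 119 and 121 CPM. The 4 libraries with TNF lay far above the 4 without, with no overlap, and those with TNF differed little among themselves. By raw count SOD2 was the 1923rd and 1823rd most abundant gene in the mock libraries, the 34th and 35th in the TNF libraries and the 30th in both TNF + Tub B libraries.

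**Figure D1:**
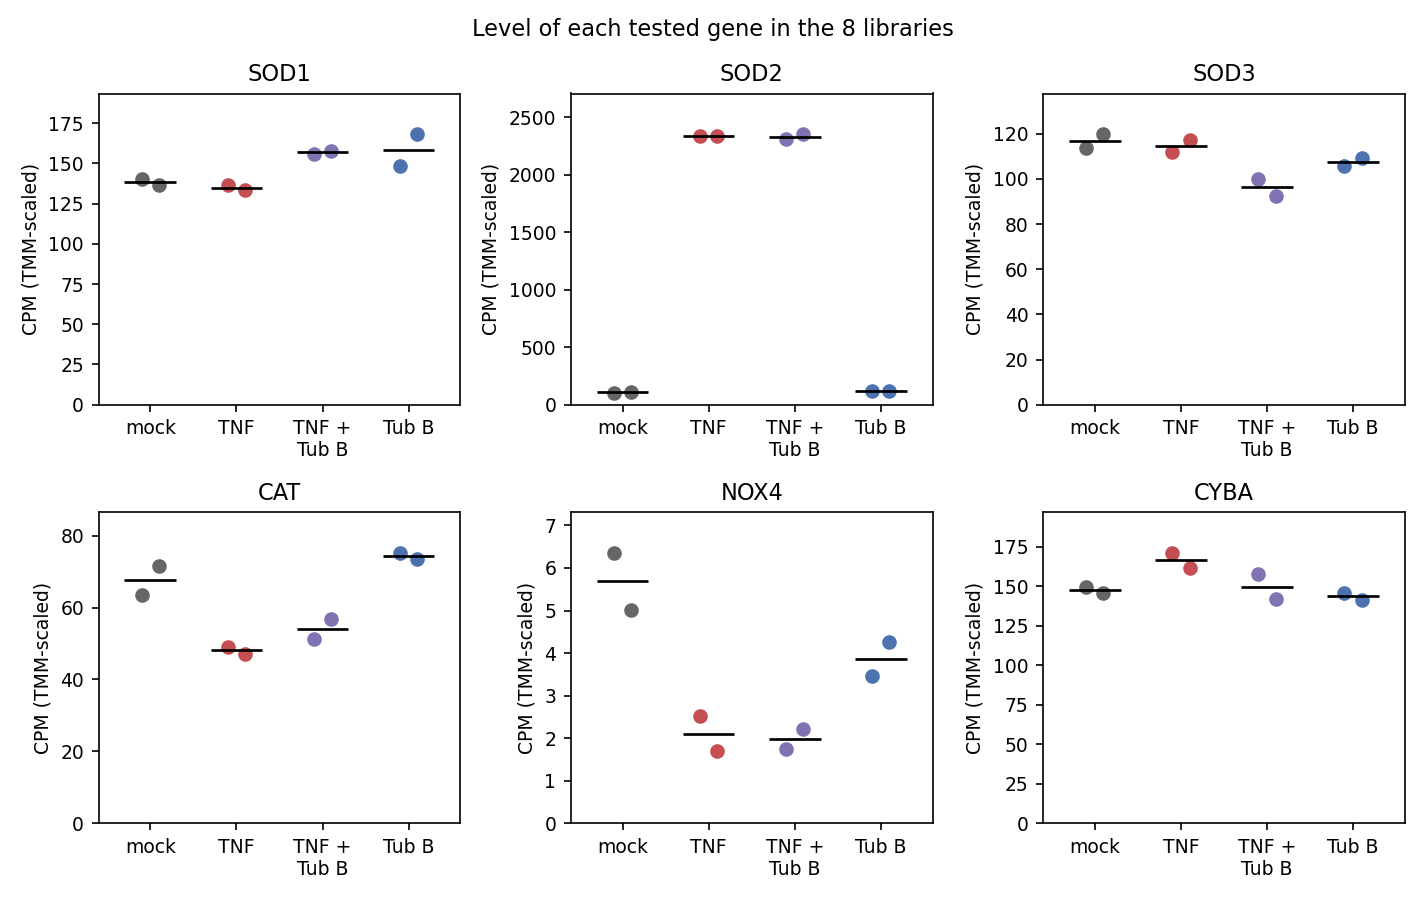
CPM of the 6 tested genes on linear axes that start at 0, with 1 point per library and a line at the mean of the 2 libraries of each group. SOD2 is at 2305.6 to 2352.2 CPM in the 4 libraries with TNF and at 105 to 121 CPM in the others, CAT and NOX4 are lower in the libraries with TNF, and SOD1, SOD3 and CYBA vary over narrower ranges.

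Against mock, SOD2 was 21.7 times higher with TNF (log2 fold change 4.44 ± 0.05 SE, edgeR adjusted p = 1.69e-20), the 44th largest increase of 16647 tested genes. Among cells given Tub B, TNF raised SOD2 19.4 times (4.28 ± 0.05, edgeR adjusted p = 2.84e-20), the 26th largest increase. These comparisons share no library. The difference between the 2 responses was −0.17 ± 0.06 on the log2 scale, with a 95% interval of −0.29 to −0.04, and did not pass the test for an interaction (edgeR adjusted p = 0.153, unadjusted p = 0.0131). Without mock replicate 2 it did pass, at −0.20 (adjusted p = 0.0480).

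Adding Tub B to TNF left SOD2 within the spread between replicates (log2 fold change −0.01 ± 0.04, 95% interval −0.09 to 0.08, edgeR adjusted p = 0.937). The sign depends on scaling: scaling by library totals alone shifted the all-gene median by 0.119 in this comparison, and SOD2 then was higher by 0.11 (adjusted p = 0.0356), and with upper-quartile factors higher by 0.04 (adjusted p = 0.568). As a share of all counts SOD2 held 0.222% and 0.220% in TNF libraries and 0.237% and 0.241% in TNF + Tub B libraries. Tub B alone raised SOD2 by 0.16 ± 0.04 (edgeR adjusted p = 0.0250), an increase of 11.7%. That call was lost in a fit of only these groups (adjusted p = 0.0707), and without mock replicate 1, Tub B replicate 1 or Tub B replicate 2 (0.152, 0.0666 and 0.154).

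Counts were not split by strand, and in the GENCODE 29 annotation exons of SOD2 overlap exons of WTAP and ACAT2 on the opposite strand, by 437 and 1141 bases. WTAP, a subunit of the RNA methylation complex, stood at 53.7 and 54.8 CPM in mock and 141 and 147 CPM with TNF, a rise of 1.41 ± 0.05 (edgeR adjusted p = 1.44e-13). ACAT2, an acetyl-CoA acetyltransferase, fell by 0.53 ± 0.08 on the log2 scale (edgeR adjusted p = 8.76e-05). The part of shared reads in the values of SOD2, WTAP and ACAT2 was not tested.

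The sequence upstream of SOD2 is shown because SOD2 led the response. RefSeq's promoter table (GRCh38.p14) lists 4 SOD2 start sites, and the 250 bases before the one lying furthest downstream, at chr6:159693242-159693491 on the minus strand, are printed first. Those of CAT and of the first listed NOX4 start site follow, at chr11:34438684-34438933 on the plus strand and chr11:89491376-89491625 on the minus strand, because these members fell with TNF. Capitals mark the motifs GGGCGG, the GC box, and CCAAT on either strand. The build behind the counts was not settled, so no value of the table is set against these coordinates.
SOD2: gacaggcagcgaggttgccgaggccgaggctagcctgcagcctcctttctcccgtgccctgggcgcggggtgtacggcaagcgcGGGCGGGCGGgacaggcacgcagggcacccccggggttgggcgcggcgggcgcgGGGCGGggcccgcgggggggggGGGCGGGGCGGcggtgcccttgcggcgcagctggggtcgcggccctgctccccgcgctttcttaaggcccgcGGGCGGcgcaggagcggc
CAT: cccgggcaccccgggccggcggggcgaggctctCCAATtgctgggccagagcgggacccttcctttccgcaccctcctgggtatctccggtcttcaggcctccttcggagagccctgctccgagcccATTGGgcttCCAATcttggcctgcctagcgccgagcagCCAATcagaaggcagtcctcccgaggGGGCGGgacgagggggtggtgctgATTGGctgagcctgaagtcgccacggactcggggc
NOX4: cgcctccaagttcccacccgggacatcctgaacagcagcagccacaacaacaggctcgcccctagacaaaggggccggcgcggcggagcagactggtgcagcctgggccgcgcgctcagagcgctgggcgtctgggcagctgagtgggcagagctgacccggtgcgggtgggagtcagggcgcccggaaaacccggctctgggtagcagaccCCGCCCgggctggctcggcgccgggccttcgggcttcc
The SOD2 window held 6 GGGCGG matches, some of them overlapping, and no CCAAT, with 80.8% G and C. The CAT window held 5 CCAAT matches and 1 GGGCGG match, and the NOX4 window held 1 GGGCGG match. Among 35116 RefSeq windows of the same length, 42.6% held GGGCGG and 32.0% CCAAT, and the median G and C content was 58.0%. RefSeq's table gave 11 windows for 6 of the 7 members, of which 7 held GGGCGG and 6 CCAAT. None of the 11 held the 10-base NF-κB consensus (5.21% of all windows), the AP-1 motif TGANTCA (6.57%) or TGACNNNGC, the core of the antioxidant response element (10.9%), nor TATAAA (10.7%). The interferon-stimulated response element, searched by its core, was in 1, that of CYBB (3.02% of all windows). A missing match says only that these letters are not in these windows.

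SOD1 was at 140.2 and 136 CPM in mock and 136 and 133 CPM with TNF. With TNF + Tub B it was at 156 and 158 CPM, with Tub B at 148 and 168 CPM. All 4 libraries with Tub B were above all 4 without. SOD1 rose by 0.22 ± 0.05 when Tub B was added to TNF (edgeR adjusted p = 0.00787) and by 0.19 ± 0.05 with Tub B alone (adjusted p = 0.0242), increases of 16.2% and 14.3%. TNF against mock gave −0.03 ± 0.05 (95% interval −0.15 to 0.08, edgeR adjusted p = 0.685). The first increase was lost without TNF replicate 2 or either TNF + Tub B library (adjusted p = 0.0725, 0.0541 and 0.0736). Without Tub B replicate 2, the higher library of its pair, the second was 0.10 (adjusted p = 0.363), and it was also lost without mock replicate 2 (0.0676), in DESeq2 (0.0547) and in a fit of only those groups (0.0531).

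SOD3 was at 114 and 119.9 CPM in mock and 112 and 117 CPM with TNF, ranges that overlapped. In Tub B it was at 106 and 109 CPM. The 2 TNF + Tub B libraries were the lowest of the 8, at 100.1 and 92.6 CPM. SOD3 fell by 0.25 ± 0.05 on the log2 scale between TNF and TNF + Tub B (edgeR adjusted p = 0.00241), a decrease that was −0.13 with library totals only (adjusted p = 0.0818). Tub B alone gave −0.12 ± 0.05 (95% interval −0.23 to −0.01, edgeR adjusted p = 0.147). TNF + Tub B against Tub B gave −0.16 ± 0.05 (edgeR adjusted p = 0.0352), a call lost in DESeq2 (0.102) and without TNF + Tub B replicate 2 (0.240), Tub B replicate 1 (0.0657) or Tub B replicate 2 (0.157). So with Tub B and TNF together SOD1 was higher and SOD3 lower than with TNF: SOD3 counts per SOD1 count, a ratio that needs no scaling between libraries, were 0.820 and 0.877 with TNF and 0.642 and 0.586 with TNF + Tub B. The ratio was 0.813 and 0.880 in mock and 0.715 and 0.649 in Tub B, so the 4 libraries with Tub B lay below the 4 without.

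**Figure D2:**
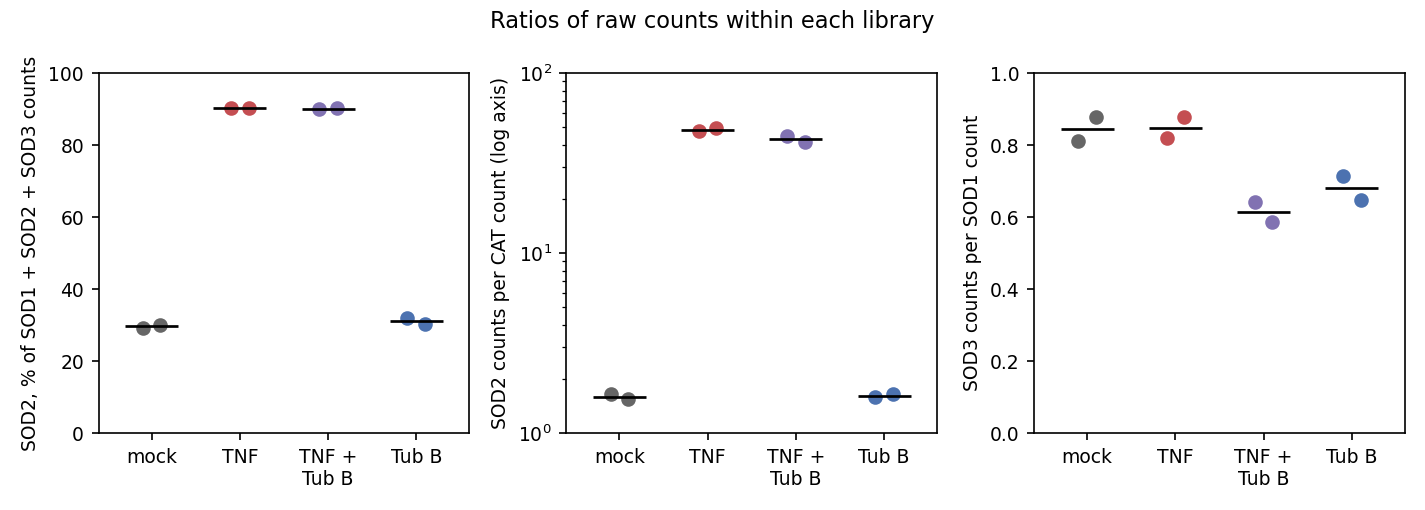
Ratios of raw counts within each library, with 1 point per library and a line at the group mean: the SOD2 percentage of all dismutase counts, SOD2 counts per CAT count on a log axis, and SOD3 counts per SOD1 count. SOD2 makes up 90.0% to 90.4% of dismutase counts in the libraries with TNF and 29.3% to 31.9% in those without, and SOD3 per SOD1 is lower in the 4 libraries with Tub B.

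SOD2 made up 29.3% and 30.1% of the counts of the 3 dismutase genes in mock and 90.4% and 90.3% with TNF. With TNF + Tub B the share was 90.0% and 90.4%, with Tub B 31.9% and 30.4%. Set per kilobase of transcript, the order of SOD1 and SOD2 turned over with TNF. With the median length of GENCODE 29 coding transcripts, mock libraries had 149 to 153 CPM per kilobase of SOD1 and 106 to 111 of SOD2, and TNF libraries 146 to 149 of SOD1 and 2360.0 to 2361 of SOD2. The merged exon length of SOD2, which counts every annotated exon however little it is used, is far longer. It gave 5.78 to 6.06 CPM per kilobase in mock and 128.5 in both TNF libraries. By merged exon length SOD1 was at 66.1 to 69.4 in these libraries. SOD1 was above SOD2 in mock and below it with TNF by either length. The place of SOD3 in mock depended on the length used. It was below SOD2 by median transcript length, at 75 to 79 CPM per kilobase, and above SOD2 by merged exon length, at 54 to 56.

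Catalase transcripts fell with TNF, with or without Tub B. CAT was at 63.7 and 71.6 CPM in mock and 49.0 and 47.2 CPM with TNF. With TNF + Tub B the level was 51.2 and 56.8 CPM, with Tub B 75.3 and 73.4 CPM. All 4 libraries with TNF were below all 4 without. CAT decreased by 28.4% with TNF (log2 fold change −0.48 ± 0.06, edgeR adjusted p = 1.18e-05), and among cells given Tub B it decreased by 27.6% (−0.47 ± 0.07, edgeR adjusted p = 3.36e-05). The difference between these responses was 0.02 ± 0.09 (95% interval −0.18 to 0.21, edgeR adjusted p = 0.960). CAT gave 0.16 ± 0.07 when Tub B was added to TNF (95% interval 0.02 to 0.30, adjusted p = 0.113) and 0.14 ± 0.06 with Tub B alone (0.01 to 0.28, adjusted p = 0.153). With library totals only both passed (0.28, adjusted p = 0.00411, and 0.20, adjusted p = 0.0354). The first also passed with upper-quartile factors (0.20, adjusted p = 0.0402) and the second without mock replicate 2 (0.22, adjusted p = 0.0252).

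SOD2 counts per CAT count were 1.65 and 1.54 in mock and 47.7 and 49.6 with TNF. The 2 enzymes act mainly in different compartments, and no balance of hydrogen peroxide was measured. With TNF + Tub B the ratio was 45.0 and 41.5, with Tub B 1.58 and 1.65. The rise of SOD2 and the decrease of CAT thus moved the ratio the same way in every library with TNF. Most of the change came from SOD2, 21.7 times higher with TNF than in mock, while CAT decreased by 28.4%.

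NOX4 was the only catalytic NADPH oxidase among the members with enough reads to be tested, and it fell with TNF. It had 179 and 89 counts in mock, or 6.36 and 5.02 CPM, and 2.51 and 1.70 CPM with TNF. In TNF + Tub B it was at 1.73 and 2.22 CPM, from 30 and 32 counts, and in Tub B at 3.45 and 4.26 CPM. The mock libraries were the highest, the Tub B libraries lay between, and the 4 libraries with TNF were lowest, with no overlap between these 3 sets. NOX4 fell 2.65-fold with TNF (log2 fold change −1.40 ± 0.20, edgeR adjusted p = 2.88e-05), the 105th largest decrease of all tested genes.

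Among cells given Tub B, NOX4 also fell with TNF (−0.97 ± 0.25, edgeR adjusted p = 0.00674). Omitting TNF + Tub B replicate 1 (−0.80, adjusted p = 0.103) or Tub B replicate 2 (−0.82, adjusted p = 0.0727) ended that call. The difference between the 2 responses was 0.43 ± 0.33 (95% interval −0.27 to 1.13, edgeR adjusted p = 0.582), which spans both signs. With Tub B alone NOX4 decreased by 33.5% (−0.59 ± 0.19, edgeR adjusted p = 0.0480). This call, just inside the threshold, was lost in DESeq2 (adjusted p = 0.203), with library totals only (0.0684), with upper-quartile factors (0.0560), and without mock replicate 1 (−0.38, 0.371), Tub B replicate 1 (−0.44, 0.298) or Tub B replicate 2 (−0.74, 0.111). Added to TNF, Tub B gave −0.16 ± 0.27 (95% interval −0.72 to 0.41, edgeR adjusted p = 0.749), so a change of either sign within that interval remains possible.

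CYBA, the p22phox gene, was at 149.6 and 146 CPM in mock and 171 and 161 CPM with TNF. With TNF + Tub B the level was 158 and 142 CPM, with Tub B 146 and 141 CPM. The TNF libraries were the highest of the 8. CYBA rose by 12.6% with TNF (log2 fold change 0.17 ± 0.05, edgeR adjusted p = 0.0178), a call lost with library totals only (adjusted p = 0.177), with upper-quartile factors (0.129), in DESeq2 (0.0561), and without mock replicate 2 (0.0573) or TNF replicate 1 (0.211). Against TNF, TNF + Tub B gave −0.15 ± 0.05 (95% interval −0.26 to −0.04, adjusted p = 0.0513), just outside the threshold. It passed in 6 of 13 alternative analyses, among them limma-voom (−0.15, adjusted p = 0.0456), and without TNF + Tub B replicate 1 it was −0.24 (adjusted p = 0.0157). CYBA counts per NOX4 count were 23.5 and 29.1 in mock, 68.2 and 94.8 with TNF. With TNF + Tub B they were 90.9 and 64.0, with Tub B 42.3 and 33.2.

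CYBB, the phagocyte oxidase subunit, had 1 and 2 counts in mock, 0 and 1 with TNF, and 0 in all 4 libraries with Tub B. Every group was at or under the limit of 3 counts, so no fold change is given. By either transcript length the oxidase members ranked CYBA first, NOX4 next and CYBB last in every library.

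**Figure D3:**
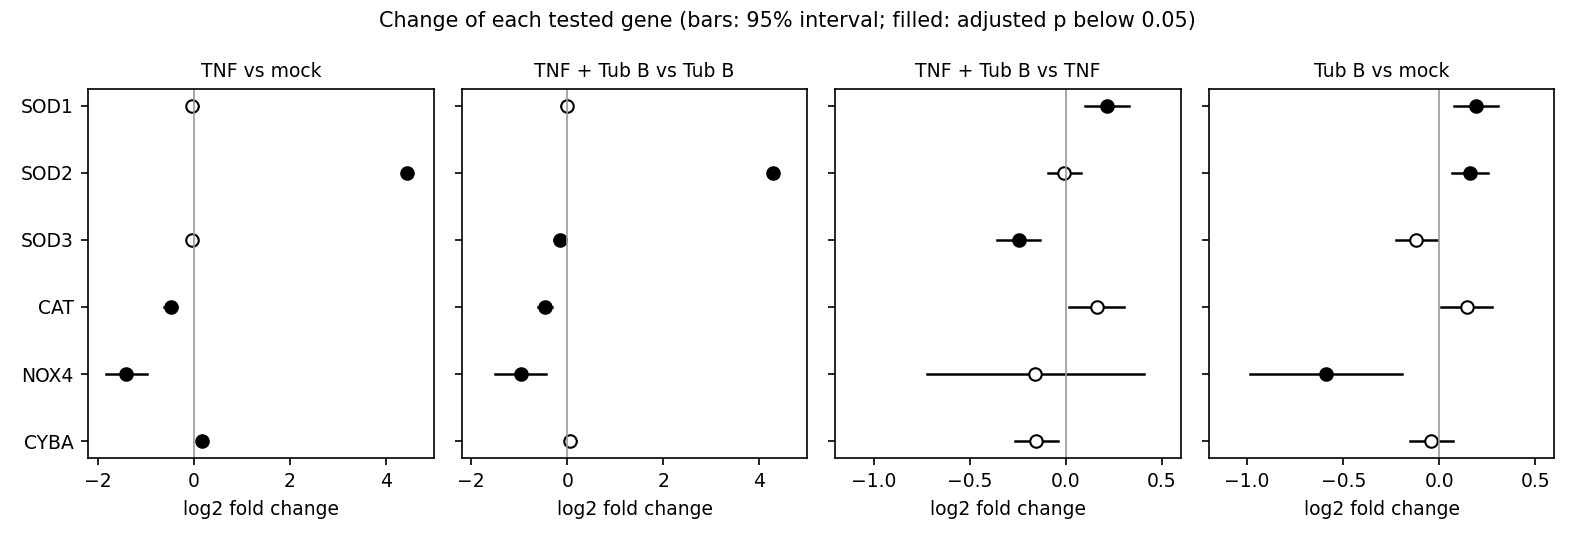
Log2 fold changes of the 6 tested genes in 4 comparisons, from edgeR, with bars for 95% intervals and filled points for an adjusted p below 0.05. The left panels share a wider axis than the right panels. SOD2 lies above 4 in both comparisons that add TNF, CAT and NOX4 lie below 0 in both, and every point lies between −0.6 and 0.3 in the comparisons that add Tub B.

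Counted over the members, 2 rose (SOD2 and CYBA), 2 fell (CAT and NOX4) and 2 did not pass between TNF and mock, while 30.5% of all tested genes were called in that comparison, 17.2% higher and 13.3% lower. Between TNF + Tub B and Tub B, 1 rose (SOD2), 3 fell (SOD3, CAT and NOX4) and 2 did not pass, against 26.4% of all tested genes, 14.3% higher and 12.1% lower. Adding Tub B to TNF gave 1 higher (SOD1), 1 lower (SOD3) and 4 not passing, against 20.2% of all tested genes, 7.11% higher and 13.1% lower. Tub B alone gave 2 higher (SOD1 and SOD2), 1 lower (NOX4) and 3 not passing, against 12.7%, 4.83% higher and 7.91% lower. The tested members, 6 in number, are too few for these shares to be set apart from the background. For the interaction edgeR called 0 of 6 members, against 4.23% of all genes called (1.04% higher and 3.2% lower), and DESeq2 and limma-voom also called 0. Before adjustment 1 member, SOD2, had an edgeR p below 0.05 (0.0131). The share of all genes at that unadjusted threshold is not given here.

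Cells given both agents differed from mock in 5 of the 6 tested members, against 28.9% of all tested genes, 15% higher and 13.9% lower. SOD2 was higher by 4.44 ± 0.05 (edgeR adjusted p = 1.74e-20) and SOD1 by 0.18 ± 0.05 (adjusted p = 0.0172). SOD3 (−0.28 ± 0.05), CAT (−0.32 ± 0.07) and NOX4 (−1.56 ± 0.23) were lower, and CYBA did not pass (0.02 ± 0.05). SOD1 lost its call without mock replicate 2 or either TNF + Tub B library (adjusted p = 0.0590, 0.0746 and 0.110). These values share the mock libraries with the comparison of TNF and mock, so the 2 sets are not independent.

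The genes nearest to SOD2 over the 8 libraries were found by the root mean square difference of log2 CPM, each gene centred on its own mean. Out of 10068 other genes they were CXCL3, a neutrophil chemokine (0.150), the cytokine gene IL1B (0.314) and TNFAIP3, a feedback inhibitor of NF-κB (0.348), against a median distance of 2.18. With Tub B added to TNF, CXCL3 gave −0.25 ± 0.10 (edgeR adjusted p = 0.0810), IL1B fell by 0.45 ± 0.06 (adjusted p = 4.99e-05) and TNFAIP3 by 0.79 ± 0.04 (adjusted p = 6.05e-10), whereas SOD2 gave −0.01. Whether SOD2 differs from them in this was not tested.

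**Figure D4:**
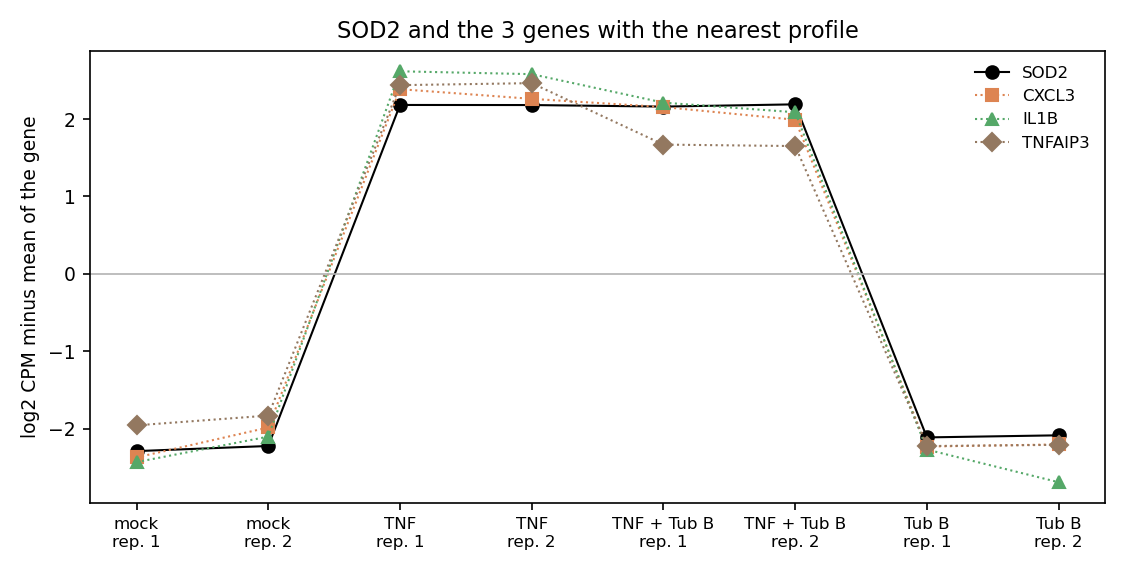
Log2 CPM of SOD2, CXCL3, IL1B and TNFAIP3 in each of the 8 libraries, each gene centred on its mean over the 8, with lines that only join the points of a gene. All 4 genes are high in the 4 libraries with TNF, and TNFAIP3 is lower in the TNF + Tub B libraries than in the TNF libraries.

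For CAT the nearest profiles were those of MYO18A, DOCK11 and PREPL (0.0443 to 0.0518, median of all 0.282), and for NOX4 those of PGM5, SSX2IP and CPA4 (0.224 to 0.235, median 0.660). SOD1 was nearest to PHC3, CCDC43 and CREBL2 (0.0328 to 0.0385, median 0.169), SOD3 to HABP4, TOB2 and TP53I11 (0.0285 to 0.0347, median 0.174), and CYBA to TMEM115, BANF1 and SZRD1 (0.0327 to 0.0340, median 0.156). Members with narrow ranges have many near neighbours by this measure.

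Other genes that build, supply or oppose these enzymes were counted over 8 lists. The shares of all tested genes to read beside these counts were 17.2% higher and 13.3% lower with TNF. They were 7.11% and 13.1% when Tub B was added to TNF, and 4.83% and 7.91% with Tub B alone. Whether any list differs from these shares was not tested. Of the 5 other catalytic NADPH oxidases, NOX5 and DUOX1 were tested. NOX5, a calcium-driven oxidase, was at 6.25 and 5.41 CPM in mock and fell with TNF to 4.43 and 3.88 CPM (−0.49 ± 0.17, edgeR adjusted p = 0.0345). Among cells given Tub B, NOX5 was not called lower with TNF (log2 fold change 0.15). It stood at 4.9 and 7.1 CPM in TNF + Tub B and 5.2 and 5.4 CPM in Tub B. NOX1 had at most 13 counts in a library, DUOX2 at most 7 and NOX3 at most 2. Of 15 subunits, organisers and assembly factors 9 were tested, and 4 rose, 2 fell and 3 did not pass with TNF, around a median of −0.03, while the median of all genes was −0.003. SH3PXD2B, an adaptor that organises oxidase at podosomes, rose by 0.95 ± 0.05 (adjusted p = 3.25e-11). POLDIP2, a protein that binds p22phox, fell by 0.17 ± 0.05 on the log2 scale (adjusted p = 0.00753). NCF1 and NCF4, cytosolic subunits of the phagocyte oxidase, stayed below 0.2 CPM in every library. When Tub B was added to TNF, 3 fell and 6 did not pass, with SH3PXD2A, another podosome adaptor, lower by 0.25 ± 0.06 (adjusted p = 0.00396). Tub B alone lowered 2, SH3PXD2A and the GTPase RAC2, and 7 did not pass.

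Among 10 tested genes of copper and manganese supply, 2 rose with TNF, both of them transporters that carry manganese and zinc into cells, and 8 did not pass (median 0.07). SLC39A14 went from 124 and 128 CPM in mock to 389 and 399 CPM with TNF (1.64 ± 0.04, edgeR adjusted p = 8.31e-15). SLC39A8 went from 16.6 and 14.6 to 46.5 and 43.8 CPM (1.53 ± 0.08, adjusted p = 6.83e-11). The same 2 were the only members of this list lower when Tub B was added to TNF, SLC39A14 by 0.43 ± 0.04 and SLC39A8 by 0.38 ± 0.08, and the only ones lower with Tub B alone. CCS and ATOX1, copper chaperones of SOD1 and SOD3, were at 17.1 to 24.0 and 41.1 to 47.6 CPM over the 8 libraries.

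Peroxisome import and assembly genes bring catalase to its place. Of 15 tested, 1 fell with TNF (PEX10, a ubiquitin ligase of the import machinery, −0.24 ± 0.08, edgeR adjusted p = 0.0225) and 14 did not pass, around a median of −0.10, while 30.5% of all tested genes were called. With Tub B alone 1 rose (PEX5, the import receptor, 0.22 ± 0.06, adjusted p = 0.0240) and 14 did not pass, against 12.7% of all tested genes called. When Tub B was added to TNF all 15 stayed short of the threshold (median 0.07), against 20.2% called. Whether this list differs from other genes was not tested. Of 6 tested peroxisomal oxidases, which release hydrogen peroxide, 2 rose with TNF, 1 fell and 3 did not pass. ACOX2, a peroxisomal acyl-CoA oxidase that acts on branched chains, went from 14.5 and 14.2 CPM to 9.09 and 8.89 CPM (−0.67 ± 0.10, adjusted p = 2.41e-05). ACOX2 rose with Tub B, by 0.48 ± 0.10 on top of TNF and by 0.35 ± 0.09 alone.

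**Figure D5:**
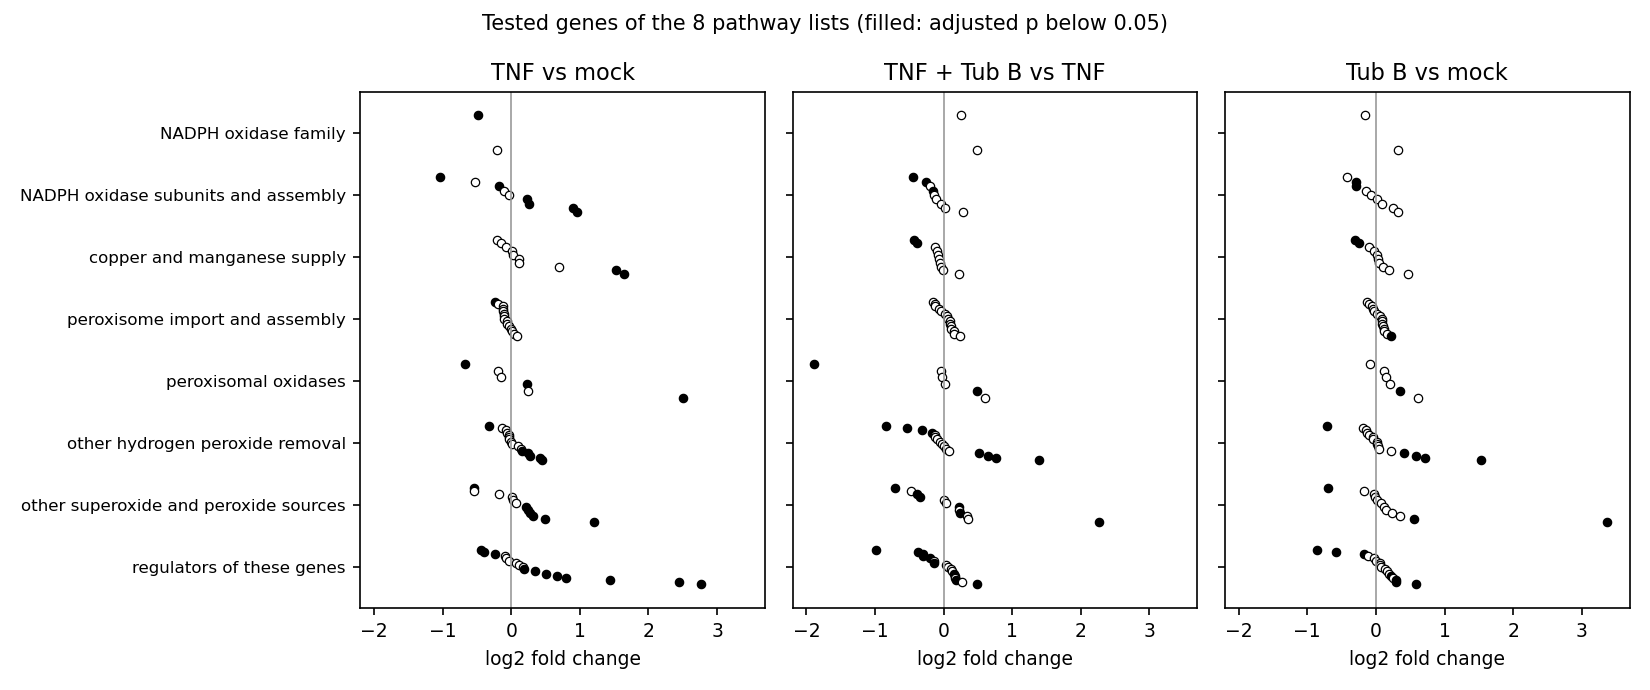
Log2 fold changes of the tested genes of 8 pathway lists in 3 comparisons, with filled points for an adjusted p below 0.05 and a spread within each row only to separate points. Peroxisome import genes lie within a narrow range in every panel, and the 2 manganese transporters are the filled points above 1.5 of the metal supply list with TNF.

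Of 16 tested genes of other hydrogen peroxide removal, 5 rose with TNF, 1 fell and 10 did not pass (median 0.01). PRDX6, a peroxiredoxin, rose by 0.41 ± 0.04 (edgeR adjusted p = 6.26e-07), GPX3, a secreted glutathione peroxidase, by 0.45 ± 0.12, and TXN2, the mitochondrial thioredoxin, fell by 0.33 ± 0.05. When Tub B was added to TNF, 4 rose and 4 fell. TXNRD1 and GSR, the reductases of thioredoxin and glutathione, rose by 1.39 ± 0.05 and 0.76 ± 0.07, while GPX1, the cytosolic glutathione peroxidase, went from 245 and 244 to 138 and 136 CPM (−0.84 ± 0.05, adjusted p = 1.76e-09) and GPX7 fell by 0.54 ± 0.12. With Tub B alone 4 rose, among them TXNRD1 (1.53 ± 0.05) and GSR (0.72 ± 0.07). The 1 that fell was GPX1, from 204 and 202 to 130 and 116 CPM (−0.72 ± 0.05, adjusted p = 5.82e-08).

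Among 12 tested genes of other superoxide and peroxide sources, TNF gave 6 higher, 1 lower and 5 not passing (median 0.14). ERO1LB and ERO1L, oxidases of disulfide formation, rose by 0.49 ± 0.11 and 0.32 ± 0.05, and AOX1, aldehyde oxidase, fell by 0.55 ± 0.05. With Tub B added to TNF, 3 rose and 3 fell, led by the cytochrome P450 gene CYP1B1 (2.27 ± 0.15) and by XDH, xanthine dehydrogenase (−0.70 ± 0.11, edgeR adjusted p = 0.000185). Tub B alone raised 2, CYP1B1 (3.4 ± 0.2) and ERO1LB (0.56 ± 0.11). XDH was the member lower with Tub B alone (−0.69 ± 0.11), although its mock libraries stood apart at 41.5 and 29.9 CPM.

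Of 17 tested transcription factors and cofactors that act on these genes, 8 rose with TNF, 3 fell and 6 did not pass (median 0.18). Over all tested genes 17.2% rose and 13.3% fell with TNF. RELB and NFKB2, NF-κB subunits, rose by 2.77 ± 0.08 and 2.45 ± 0.05. Adding Tub B to TNF gave 4 higher and 6 lower: NFKB1 fell from 112 and 114 to 87.7 CPM in both libraries (−0.37 ± 0.05, edgeR adjusted p = 4.33e-05) and FOXO1, a factor that acts on CAT and SOD2, by 0.99 ± 0.20, while FOXO4 rose by 0.49 ± 0.12 and NFE2L2, the gene of NRF2, by 0.17 ± 0.06 (adjusted p = 0.0406). With Tub B alone 4 rose, among them BACH1 and NFE2L2 (0.30 ± 0.07 and 0.30 ± 0.06), and 3 fell, among them FOXO1 (−0.85 ± 0.17) and RELB (−0.58 ± 0.11).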

How the data were processed

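The authors deposited raw gene counts of 8 libraries in 1 table, with 1 column per library and 0 columns unassigned. Per the submitters' processing notes, STAR 2.7.0 aligned the reads and featureCounts made the counts. Both mm10 and hg19 appear in those notes, without roles, and the symbols are human. Per the labels' protocols the library kit does not keep strand.

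Computation used R 4.3.3, edgeR 4.0.16, limma 3.58.1 and DESeq2 1.42.0. filterByExpr kept 16647 genes. All 8 libraries entered an edgeR quasi-likelihood fit with a coefficient for each group and TMM scaling. Calls needed an adjusted p (Benjamini-Hochberg, over all genes tested) below 0.05. An SE is the log2 fold change divided by the square root of its F. Log2 CPM used a prior count of 2. Steps were tested on simulated counts. Transcript lengths, exon overlaps and promoter windows came from GENCODE 29 and RefSeq, both on GRCh38, a build the notes do not name.

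The members and lists were chosen with earlier results of these data known. All 7 members are named. From each of the 8 pathway lists, up to 2 called genes per direction with at least 5 CPM in the higher group are named by size of change (some are not reported here), and 3 genes per member by nearest profile among protein-coding genes of at least 5 CPM. Other genes named for their role (NOX1, NOX3, DUOX1, DUOX2, NCF1, NCF4, CCS, ATOX1, WTAP, ACAT2, COL1A2, VIM, PRG4, TYROBP, CD14, PTPRC, TEK) were chosen after their values were seen. Of 145 list symbols, 2 were not matched in the table and are not analysed here. Alternatives were 3 other scalings (RLE, library totals, upper quartile), 2 other tools (limma-voom and DESeq2), a looser and a stricter filter on low counts, smaller fits with just the groups in question, a replicate term, and leaving out each library. A group left with 1 library is assumed to vary like the others.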

Additional observations from a re-analysis of the deposited data

How the results depend on the processing

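Of 18 called member results, 9 kept their call under every alternative run: SOD2 in 3 comparisons (TNF against mock, and TNF + Tub B against Tub B and against mock), CAT in the same 3, NOX4 in TNF and in TNF + Tub B against mock, and SOD3 in TNF + Tub B against mock. None of the 18 changed sign, and the cause of the changes below was not tested. With library totals only, SOD2 in TNF + Tub B against TNF turned from −0.01 to 0.11 and CYBA in Tub B against mock to 0.0150. With upper-quartile factors the SOD2 value was 0.0374 and CYBA in TNF + Tub B against mock −0.00210, which was −0.00465 with no filter. In Tub B against mock, 3 members were called, but 1 in DESeq2 and 1 in the fit of only those groups. Leaving out 1 library at a time gave 1 to 2 members called in TNF + Tub B against TNF (lowest without TNF replicate 2 or TNF + Tub B replicate 2), 0 to 3 in Tub B against mock (0 without Tub B replicate 2), 2 to 3 in TNF + Tub B against Tub B, and 0 to 1 for the interaction (1 without mock replicate 2). Uncalled values that changed sign in this way ranged from −0.0693 to 0.00443 for SOD3 in TNF against mock, and in TNF + Tub B against TNF from −0.0322 to 0.000484 for SOD2 and −0.36 to 0.20 for NOX4. In TNF + Tub B against Tub B they ranged from −0.107 to 0.0773 for SOD1 and −0.0234 to 0.125 for CYBA, which ranged from −0.0655 to 0.0833 against mock. Interaction values ranged from −0.0743 to 0.110 for SOD1 and −0.0671 to 0.105 for CAT. Over all genes, Tub B against mock gave 2120 calls, 1345 in DESeq2 and 699 without Tub B replicate 2, TNF + Tub B against TNF gave 3367 and as few as 2034 without TNF + Tub B replicate 1, and the interaction gave 705, 421 in DESeq2, and 305 without Tub B replicate 1 to 1315 without mock replicate 2. Over all tested genes, the differences between replicates 1 and 2 were nearly uncorrelated between groups (r = −0.05 to 0.05). Replicate 1 had the larger library total in each group. A correlation over all genes cannot show whether same-numbered libraries share a batch, and this was not tested further. With a replicate block, 3 members instead of 2 were called in TNF + Tub B against TNF, CYBA being added (−0.15, adjusted p = 0.0153), and 3656 genes instead of 3367. NOX4 had 30 to 179 counts a library, the fewest of the tested members.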
